A study of Mus musculus with 12 samples.

Results

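The COP9 signalosome subunits were measured in rod photoreceptors and whole retina of mice with a rod-specific deletion of Shp2, the tyrosine phosphatase encoded by Ptpn11. The 10 genes were taken by name (Gps1, Cops2, Cops3, Cops4, Cops5, Cops6, Cops7a, Cops7b, Cops8 and Cops9) from the 56748 genes of the deposited table. Each name matched 1 gene, and all 10 passed the filter on low values in every comparison. Cops5 is also among the upstream regulators that the study's pathway analysis named in Shp2 KO rods, and the question here is what the RNA of the complex did in the same libraries.

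Retinas came from littermates aged 2 weeks. Controls were Het (RiboTag;Shp2fl/+;i75-Rod-Cre), and KO mice were RiboTag;Shp2fl/fl;i75-Rod-Cre. The titles call the controls wt, but their genotype label is Het, so every animal carried RiboTag, a Cre driven by a rod-specific promoter, and at least 1 floxed Shp2 allele, which leaves no undeleted comparison. Cre switches on an HA-tagged ribosomal protein in rods, and translating ribosome affinity purification (TRAP) then pulls down ribosome-bound RNA with HA beads. Bead RNA is called rods here and unpurified input RNA is called retina, giving 4 groups of 3 libraries: Het retina, KO retina, Het rods and KO rods. Nothing in the labels says whether each library came from 1 animal, so p-values measure the spread between these libraries.

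The COP9 signalosome is a protein complex that removes the ubiquitin-like protein NEDD8 from cullins, the scaffolds of cullin-RING ubiquitin ligases. NEDD8 on a cullin turns the ligase on, and its removal lets the ligase change substrate receptors. Cops5 carries the metalloprotease that cuts NEDD8 off, Cops6 is its inactive partner with a related fold, and Gps1, Cops2, Cops3, Cops4, Cops7a or Cops7b, and Cops8 share a scaffold (PCI) domain. Cops9 is a small acidic subunit. The proteasome lid and the translation initiation factor eIF3 are built from the same kinds of domains.

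The values appear to be read counts scaled to a common total within each fraction, which was inferred from the values and is not stated by the sources. Retina libraries summed to 14525527 to 14527992 and rod libraries to 16263948 to 16265259, from an estimated 9980000 to 19240000 reads in retina and 11890000 to 25300000 in rods. Counting error is small for these genes, reaching a CV of 7.96% for Cops7b at its lowest estimated 158 reads and at most 5.31% for the other subunits. Rod markers were called higher in rods in 8 of 8 cases in both genotypes, and summed to 2.06 to 2.72% of the total in retina and 6.12 to 7.37% in rods. Markers of Müller glia (7 of 7 called lower in both genotypes) summed to 0.351 to 0.554% in retina and 0.0108 to 0.018% in rods. Cone markers were also called lower in 7 of 7 cases, with 0.0895 to 0.106% in retina and 0.0273 to 0.0439% in rods, so rod RNA was enriched and not pure. The deposited values of Ptpn11 in Het rods were 2511, 2439 and 2431, while KO rods had 1735, 2139 and 1971, with no overlap between the groups. Its log2 fold change was −0.26 (SE 0.09, limma adjusted p = 0.064), and values for the whole gene do not resolve the floxed stretch.

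Levels of the subunits per transcript length fell into a narrow band with 1 gene far below it. Values are given here as TMM-scaled reads (TMM is a scaling that trims extreme genes) per kb of the longest coding transcript in GENCODE M21, mean ± SD with n = 3. In Het retina, 9 subunits lay between Gps1 at 370 ± 103 and Cops9 at 625 ± 60.4 per kb. Within that band no neighbours in the order Cops9, Cops4, Cops6, Cops7a, Cops3, Cops8, Cops5, Cops2, Gps1 were apart, since the libraries of each neighbouring pair overlapped. The exception was Cops7b, at 41.1 ± 6.51 per kb, 9.01-fold below Gps1 and not overlapping with it.

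The KO retina had the same order, from Cops9 at 701 ± 105 to Gps1 at 377 ± 83.1 and Cops7b at 40.3 ± 3.53 per kb. Here Cops9 did not overlap with Cops4, the next gene, at a ratio of 1.22. The 9 subunits sat between the 87.02 and 93.8 percentiles of the 16906 genes ranked per kb in retina. Cops7b sat at the 36.01 percentile in Het retina and 35.21 in KO retina.

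In Het rods the order changed at the top. Cops3 led with 1253 ± 123 per kb, 1.25-fold above Cops9 at 1004 ± 41.4 and not overlapping with it, and Cops9 did not overlap with Cops4 at 898 ± 34.8. Cops2, Cops6, Cops7a, Cops8 and Cops5 followed from 881 to 791 per kb, each overlapping with its neighbour. Gps1, at 467 ± 70.8, was 1.69-fold below Cops5 with no overlap. Cops7b was again lowest at 63.9 ± 1.06, 7.31-fold below Gps1.

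In KO rods Cops9 and Cops7a were level at 1043 ± 67.2 and 1034 ± 126 per kb. Cops3 came next at 917 ± 82.4, overlapping with Cops7a. At the lower end Cops2, Cops5 and Gps1 overlapped between 652 and 589 per kb. The only gaps in that order were between Cops4 and Cops2, at a ratio of 1.15, and between Gps1 and Cops7b, at 8.03.

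**Figure D1:**
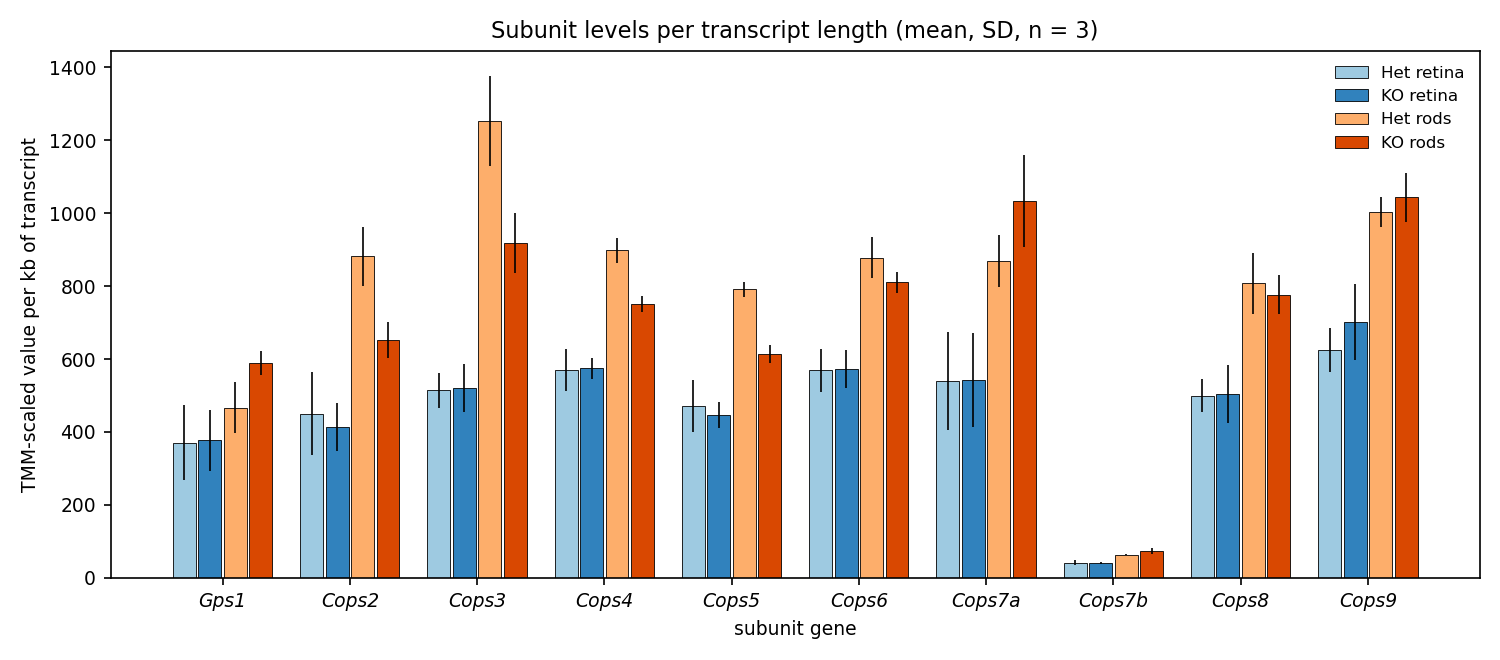
Level of each subunit gene (x axis) as TMM-scaled value per kb of transcript (y axis, linear from 0) in Het retina, KO retina, Het rods and KO rods; bars are means and lines are SDs over 3 libraries. Cops7b lies far below the other 9 subunits in all 4 groups, and Cops3 has the tallest bar in Het rods.

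The paralogues Cops7a and Cops7b fill the same place in the complex. Cops7a was 1046, 1465 and 911 in Het retina, 1116, 886 and 1359 in KO retina, 1244, 1477 and 1390 in Het rods, with 1574, 1880 and 1452 in KO rods. Cops7b was 268, 294 and 209, then 230, 262 and 251, then 301, 294 and 300, then 327, 312 and 389 in the same groups. Cops7a was the higher in every library, before any division by length. The transcript used for Cops7b is 5383 bases long against 1817 for Cops7a, so the gap per kb depends on that isoform. The log2 ratio of Cops7a to Cops7b was 2.22 ± 0.24 (SD, n = 6) in rods and 2.14 ± 0.25 (n = 6) in retina. These differed by 0.08, less than the spread (exact two-sided permutation test, p = 0.58, where 0.0022 is the smallest p possible). Within genotype the difference was 0.06 in Het (exact p = 0.7) and 0.1 in KO (exact p = 0.8), where 3 libraries against 3 cannot go below 0.1. Taken by replicate number, the Het differences were 0.09, 0.01 and 0.09, positive in 3 of 3 pairs (exact two-sided sign-flip test, added after the data were seen, p = 0.25, the smallest that 3 pairs allow). The KO differences by number were −0.006, 0.835 and −0.531, positive in 1 of 3.

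**Figure D2:**
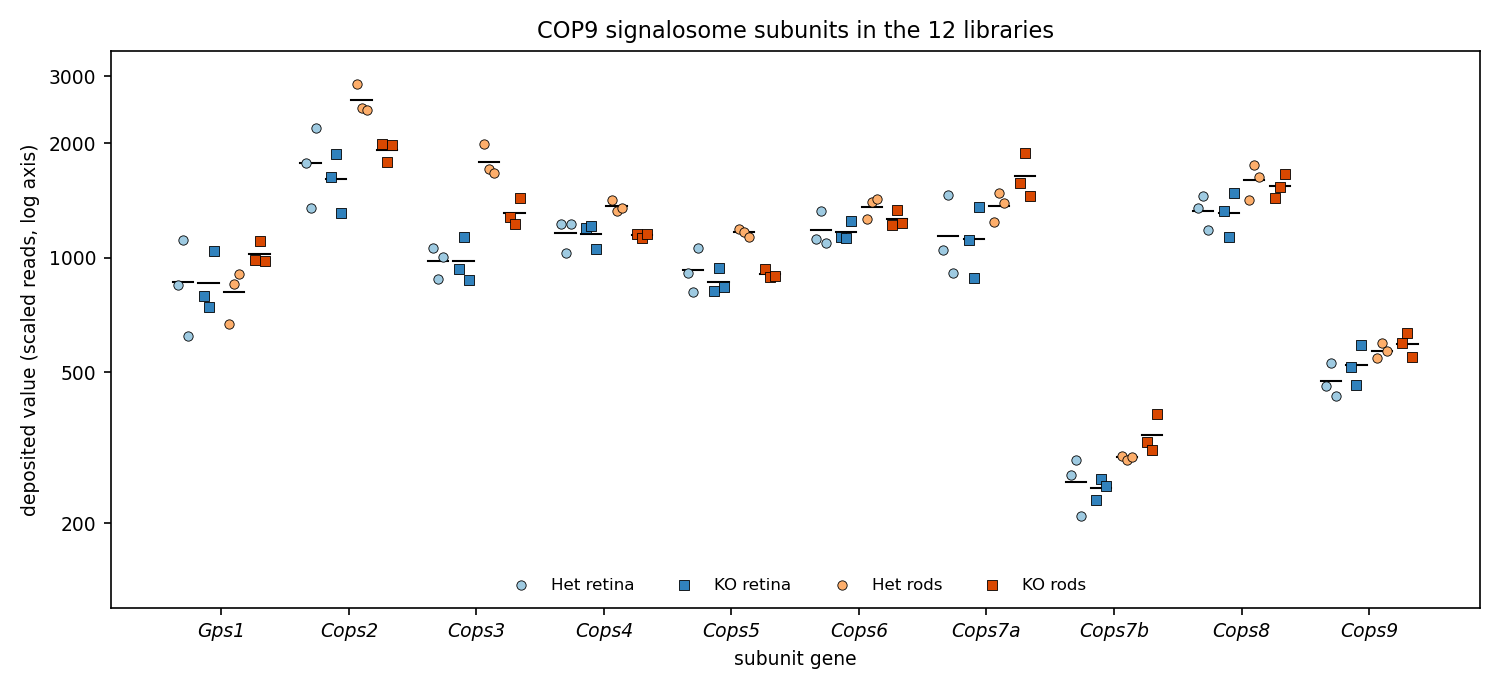
Deposited value (y axis, scaled reads, log axis) of each subunit gene (x axis) in each of the 12 libraries; circles are Het, squares are KO, blue is retina, orange is rods, and horizontal lines are group means. Retina and rod libraries sum to different totals, so colours are compared within blue or within orange. Cops5 is lower in all 3 KO rod libraries (887 to 933) than in the 3 Het rod libraries (1133 to 1193).

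Rods against retina asks which subunit RNAs are more abundant on rod ribosomes than in the tissue. In Het mice all 10 subunits had positive log2 fold changes, from 0.19 for Gps1 to 1.12 for Cops3, with a median of 0.52 against −0.11 for the 16110 genes tested. At adjusted p below 0.05 and a log2 change beyond 0.5, 6 of the 10 were called higher (Cops2, Cops3, Cops5, Cops7a, Cops8 and Cops9) and none lower, where 21.6% of genes were called higher and 36.8% lower. At adjusted p below 0.05 alone, 9 of 10 rose, where 24.9% of genes did. The libraries of rods and retina did not overlap for 8 of 10, all higher, where 28.6% of genes were higher without overlap. In bulk RNA, more rod cells in a sample and more of a transcript per rod cannot be told apart.

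The KO mice gave the same comparison in 6 other libraries. All 10 subunits were again positive, from 0.37 for Cops4 to 0.93 for Cops7a, with a median of 0.63 against −0.02 for the 16121 genes tested. Of the 10, 7 were called higher (Gps1, Cops2, Cops3, Cops7a, Cops7b, Cops8 and Cops9), where 25.8% of genes were called higher and 36.5% lower. All 10 passed adjusted p below 0.05, where 30% of genes rose at that limit. Rods and retina did not overlap for any of the 10, where 32.8% of genes were higher without overlap.

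Taking the protease pair first, Cops5 was 910, 812 and 1063 in Het retina and 817, 937 and 839 in KO retina. Het rods had 1193, 1169 and 1133, and KO rods had 933, 887 and 896. TMM is meant to set retina and rods on 1 footing, and the results depended on this scaling, as given below. Scaled so over all 12 libraries, Cops5 was 801 ± 120 in Het retina and 1343 ± 35.1 in Het rods. The Het fit scaled the Het libraries alone and gave 1.5-fold (log2 0.59, SE 0.13, limma adjusted p = 0.004), with no overlap. Fitting all 12 libraries together gave a log2 fold change of 0.755. In KO mice the means over the 12-library scaling were 757 ± 61 in retina and 1042 ± 43.2 in rods. The fit of the KO libraries alone gave 1.36-fold (log2 0.44, SE 0.11, adjusted p = 0.0079), again with no overlap. Cops6, its MPN-domain partner, was 1.38-fold higher in Het rods (log2 0.46, SE 0.13, adjusted p = 0.014) and 1.4-fold higher in KO rods (log2 0.48, SE 0.11, adjusted p = 0.0049). Neither difference for Cops6 reached the limit of 0.5.

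Among the scaffold subunits, Cops3 differed most in Het mice. It was 1061, 879 and 1006 in Het retina, 934, 1132 and 875 in KO retina, 1987, 1708 and 1672 in Het rods, with 1276, 1225 and 1435 in KO rods. The rod values stood clear of the retina values in both genotypes. Cops3 was 2.17-fold higher in Het rods (log2 1.12, SE 0.12, adjusted p = 5.7e-05) and 1.74-fold in KO rods (log2 0.8, SE 0.13, adjusted p = 0.00064).

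Cops2, which contacts the cullin, was 1770, 1349 and 2193 in Het retina and 1634, 1877 and 1308 in KO retina. Het rods had 2862, 2476 and 2438, while KO rods had 1992, 1789 and 1984. On the TMM scale rods and retina did not overlap in either genotype. Cops2 rose 1.77-fold in Het (log2 0.83, SE 0.17, adjusted p = 0.0031) and 1.56-fold in KO (log2 0.65, SE 0.14, adjusted p = 0.0029).

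Gps1 was the 1 subunit without a called difference at either limit in Het mice. It was 847, 1112 and 622 in Het retina, 795, 740 and 1040 in KO retina, 670, 855 and 905 in Het rods, with 985, 1108 and 979 in KO rods. Its log2 fold change was 0.19 in Het (SE 0.22, adjusted p = 0.48), with a 95% interval of −0.32 to 0.7. In KO it was 0.64 (SE 0.16, adjusted p = 0.0066).

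The other scaffold subunits lay close together in Het mice. Log2 fold changes were 0.49 for Cops4, 0.54 for Cops7a, 0.48 for Cops7b and 0.52 for Cops8, with SEs from 0.11 to 0.19. In KO mice they ran from 0.37 for Cops4 to 0.93 for Cops7a, with Cops7b at 0.83 and Cops8 at 0.61. Cops9 was near 0.5 in both, at 0.52 (SE 0.14, adjusted p = 0.01) in Het and 0.56 (SE 0.14, adjusted p = 0.0076) in KO.

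**Figure D3:**
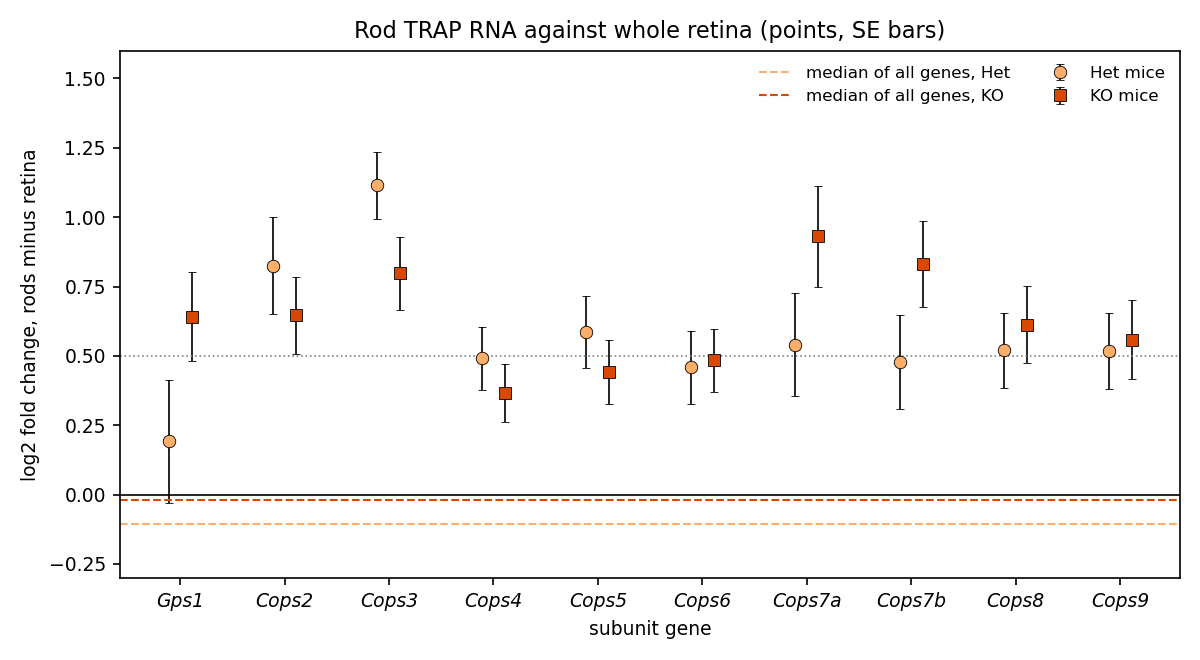
Log2 fold change of rods over retina (y axis) for each subunit gene (x axis) in Het and KO mice; points are limma estimates, bars are SEs, dashed lines are medians of all genes tested, and the dotted line is the limit of 0.5. All 20 points lie above both medians, and Cops3 in Het mice is highest at 1.12.

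How far rods exceeded retina depended on the scaling. With library size alone in place of TMM, the median of all genes moved from −0.11 to −0.51 in Het and from −0.02 to −0.55 in KO. The share of called genes that were higher then fell from 36.98 to 13.63% in Het and from 41.47 to 12.73% in KO. Under that scaling 1 subunit (Cops3) was called in Het, where 1168 of 16110 genes were called higher. In KO 0 were called, where 1144 of 16121 genes were. Gps1 turned to −0.22 in Het, and Cops4, Cops5 and Cops6 turned to −0.17, −0.09 and −0.05 in KO. With each library's GC trend removed, 3 subunits were called in Het (Cops2, Cops3 and Cops7a), where 21.5% of genes were called higher, and 7 in KO, where 26.7% were. At adjusted p below 0.05 alone 9 and 10 passed, where 29.4% and 34.7% of genes rose. The 9 in Het were not the same genes: Gps1 came in (limma adjusted p = 0.015) and Cops7b dropped out (0.11). Cops5, Cops8 and Cops9, the calls lost in Het, passed that limit and fell under the fold limit of 0.5. With a value of 10 required in every library, 2 and 3 were called, where 2287 and 2759 genes were called higher. That filter tests fewer rod-depleted genes, and the subunits' share was not compared with that of all genes under it. The subunits' median stood above the median of all genes by 0.62 in Het under both scalings, and by 0.65 with TMM and 0.64 with library size in KO; with the stricter filter these gaps were 0.33 in both.

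The counts also rested on single retina libraries. Subunits called higher in Het fell from 6 to 2, 3 and 3 without Het retina replicate 1, 2 or 3, and those at adjusted p below 0.05 fell from 9 to 2 without replicate 1. In KO, 7 called fell to 3 without KO retina replicate 1 and to 4 without replicate 2, and the 10 at adjusted p below 0.05 fell to 3 and 6. All genes called higher in KO went from 4164 to 2543 without KO retina replicate 1.

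Complexes of related build were counted in the same way, against 21.6% of all genes called higher in Het and 25.8% in KO. In the proteasome lid, which carries the protease Psmd14, 5 of 9 genes were called higher and 0 lower in Het, with a median of 0.54, led by Psmd8 at 0.95. In the eIF3 core 6 of 12 were called higher and 0 lower, with a median of 0.5, led by Eif3e at 1.03. In KO mice the counts were 3 of 9 for the lid (median 0.49) and 9 of 12 for eIF3 (median 0.6). The signalosome had 6 of 10 with a median of 0.52 in Het and 7 of 10 with 0.63 in KO. No difference between the lists was tested.

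The ligases that the complex acts on were split. Of 10 cullins and RING partners, 6 were called higher in Het rods and 1 lower, where 21.6% and 36.8% of genes were, with log2 fold changes from −3.42 to 1.21. Those with the largest rises were Cul3 at 1.21, Cul5 at 0.96 and Cul4a at 0.9, and the 1 that fell was Cul7 at −3.42. In KO mice 6 were called higher and 1 lower, where 25.8% and 36.5% of genes were, with Cul3 at 0.98, Cul4a at 0.91, Cul9 at 0.9 and Cul7 at −2.59.

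The enzymes that attach NEDD8 were called higher in 3 of 10 cases and lower in 1 in each genotype. Their share of higher calls was close to that of all genes (21.6% in Het, 25.8% in KO). Of all genes, 36.8% in Het and 36.5% in KO were called lower. Nae1 and Uba3, the pair that activates NEDD8, stood at 0.94 and 0.83 for Het mice, and at 0.51 and 0.57 for KO mice. Dcun1d4, a co-ligase, was −0.6 in Het and −0.78 in KO. Of 6 genes for NEDD8 removal or cullin exchange, 3 were called higher and 1 lower in each genotype, against those same shares of all genes. Cand1, which exchanges substrate receptors on cullins, rose by 0.72 in both Het and KO, and its paralogue Cand2 was −1.75 and −1.28.

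Of 16 cullin adaptors and receptors, 2 were called higher and 3 lower in Het, and 4 higher and 2 lower in KO, shares no higher than those of all genes in either direction. Klhl18, a receptor for Cul3, rose by 1.18 and 1.56, and Ddb1, the adaptor of Cul4 ligases, by 1.16 and 1.29. Among 7 proteins known as partners or substrates of Cops5 or of the complex, 1 was called higher in Het, 2 in KO and 1 lower in each. Of all genes, 21.6% were called higher and 36.8% lower in Het, and 25.8% and 36.5% in KO, so these counts do not set the list apart. Hif1a, the hypoxia-inducible factor, rose by 1.29 in Het and 1.17 in KO, and Trp53 was −0.72 and −0.6. Jun, the transcription factor from which Cops5 has the name Jab1, was called in KO at 0.81 and not in Het at 0.13 (adjusted p = 0.66). The difference between the genotypes in that contrast was not past the threshold for any gene tested, as given below.

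Since most subunits were higher in rods, the stretches just before their starts were read from the RefSeq promoter table (mouse GRCm38.p6), which held 9 of the 10. Cops5 has no entry there. Windows of 250 bases before the first RefSeq start were searched on both strands for 6 motifs. For Cops8 the last 120 bases of that window (chr1:90603305-90603424, plus strand) lie after the GENCODE start at 90602981. Its matches are thus inside the gene as GENCODE draws it. The ETS core CCGGAA was in 7 of 9 windows (Gps1, Cops2, Cops3, Cops4, Cops7a, Cops8 and Cops9), where 12.2% of 27025 promoters held it. The SP1 box GGGCGG was in 5 of 9 (32.9% of promoters), and the photoreceptor CRX core TAATCC in Cops8 and Cops9 (6.4%). The CRE palindrome TGACGTCA (1.6%), the YY1 core AAGATGGCG (0.6%) and the palindrome of NRF1 (0.8%) were in 0 of 9. The GC content of the 9 windows ran from 51.2 to 76.8%, where the median promoter had 52%. The shares above are over all promoters in the table. Promoters of genes with a like level or GC content were not compared, and a link to the rise in rods was not tested. Cops6 and Cops7b had no ETS core. Of these only Cops7b had a low level, while Gps1, which has a core, was the lowest of the other subunits in every group. A link between the core and the level was not tested. The 120 bases before the first RefSeq start are shown 5′ to 3′ on the gene's strand for 3 genes with repeated or single ETS cores and for Cops7b. Capitals mark CCGGAA or TTCCGG, which overlap once in Cops2.
Cops7a (chr6:124965513-124965632, minus strand): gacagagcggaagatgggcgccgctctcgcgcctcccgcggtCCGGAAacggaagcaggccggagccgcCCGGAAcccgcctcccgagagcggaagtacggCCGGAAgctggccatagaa
Cops7b (chr1:86582801-86582920, plus strand): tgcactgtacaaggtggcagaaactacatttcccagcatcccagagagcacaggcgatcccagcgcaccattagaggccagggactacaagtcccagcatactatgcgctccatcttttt
Cops2 (chr2:125859083-125859202, minus strand): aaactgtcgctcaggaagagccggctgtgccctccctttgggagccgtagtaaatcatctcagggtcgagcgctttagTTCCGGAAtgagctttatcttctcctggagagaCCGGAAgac
Gps1 (chr11:120784150-120784269, plus strand): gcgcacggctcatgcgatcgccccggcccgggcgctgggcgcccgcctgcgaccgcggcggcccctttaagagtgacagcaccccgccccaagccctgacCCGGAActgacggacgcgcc

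A match in these windows is a description of the sequence. No factor's binding was measured.

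KO against Het in rods asks what loss of the second Shp2 allele did to the complex in the cells that lost it. None of the 10 subunits was called at both limits, where 11.2% of the 13055 genes tested were called higher and 1.91% lower. At adjusted p below 0.05 with no fold limit, Gps1 rose, and Cops2, Cops3 and Cops5 fell, where 15.7% of genes rose and 8.58% fell. The libraries did not overlap for Gps1, Cops7a and Cops7b, higher in KO, and for Cops2, Cops3, Cops4 and Cops5, lower in KO, where 23.7% of genes were higher and 20.4% lower without overlap. The subunits' median was 0.002 against −0.01 for all genes tested, and they spread to both sides from −0.36 for Cops3 to 0.43 for Gps1.

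Cops5 fell by 0.28 on the log2 scale (SE 0.08, limma adjusted p = 0.028), with a 95% interval of −0.46 to −0.1. All 3 KO rod values of Cops5 given above lay below all 3 Het values. Cops3 fell by 0.36 (SE 0.09, adjusted p = 0.014) and Cops2 by 0.35 (SE 0.08, adjusted p = 0.013). Gps1 rose by 0.43 (SE 0.12, adjusted p = 0.027), the opposite direction from the protease subunit.

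The remaining 6 did not pass. Cops4 was −0.17 (adjusted p = 0.13), with 1420, 1325 and 1354 in the Het libraries against 1151, 1124 and 1157 in the KO libraries. Cops7a was 0.33 (adjusted p = 0.06) and Cops7b 0.28 (adjusted p = 0.098). Cops6 at −0.03, Cops8 at 0.03 and Cops9 at 0.14 had 95% intervals of −0.23 to 0.17, −0.18 to 0.24 and −0.09 to 0.37.

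The order of these changes followed the GC content of the transcripts. Cops2 (37.3% GC), Cops3 (45%) and Cops5 (46.1%) fell, and Gps1 (55.8%), the most GC-rich, rose, with Cops7a (55%) the next highest in both. Over the 10 subunits the Spearman correlation of log2 fold change with GC was 0.92, and over all genes tested in rods it was 0.7. Genes share libraries, so this is a description across genes. The libraries themselves split by it: the log2 gap between the most and least GC-rich deciles of genes was −0.81, −0.23 and −0.42 in the 3 Het rod libraries, against 0.42, 0.76 and 0.28 in the 3 KO rod libraries. These do not overlap, so genotype and the GC trend of the libraries cannot be told apart.

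With each library's GC trend removed, the 3 lower subunits were at −0.1 for Cops3, −0.05 for Cops5 and 0.02 for Cops2, none at adjusted p below 0.05, and Gps1 was at 0.09 (adjusted p = 0.59). Only Cops7b then passed adjusted p below 0.05, at 0.43 (SE 0.1, adjusted p = 0.02), where 6.28% of genes rose at that limit. Its GC content of 48.1% lies next to that of Cops4 (48%), which was at −0.01.

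**Figure D4:**
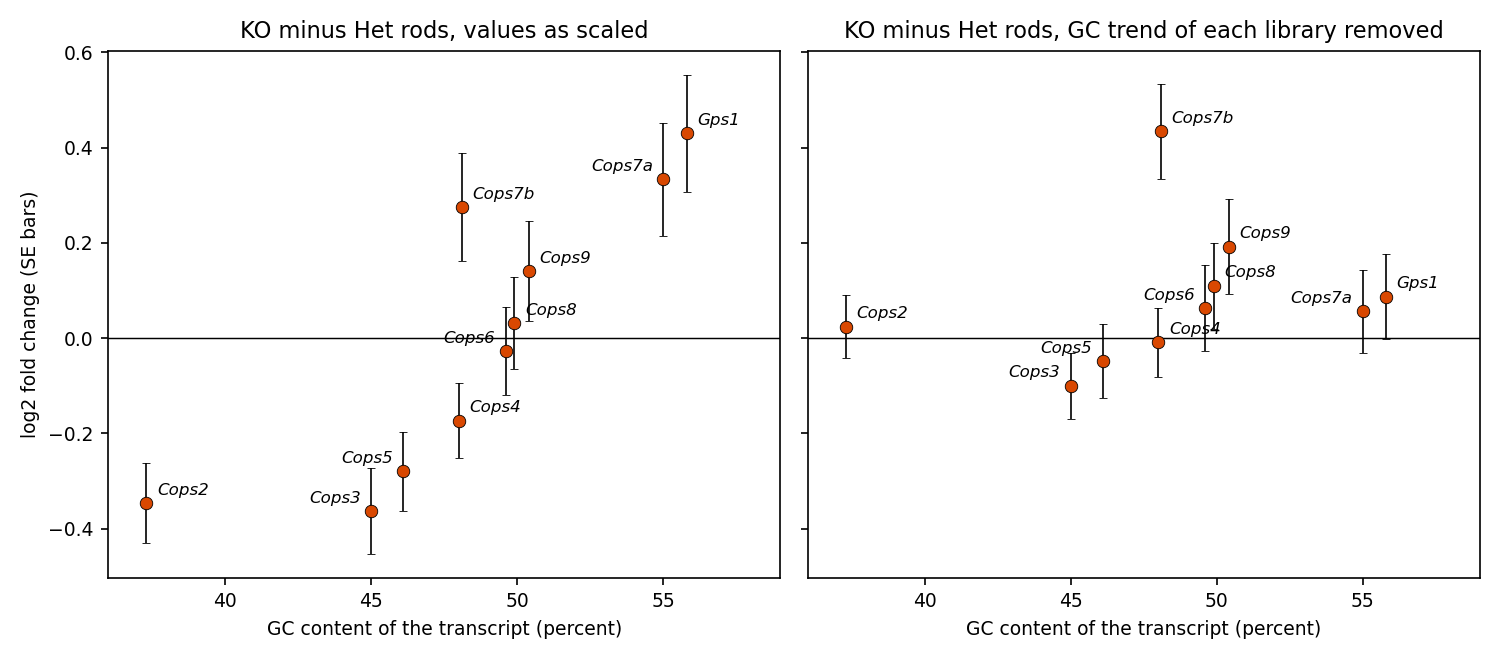
Log2 fold change of KO over Het rods (y axis) against GC content of the transcript in percent (x axis) for the 10 subunits, with the values as scaled (left) and with each library's GC trend removed (right); bars are SEs. On the left the points climb from Cops2 and Cops3 to Gps1 at 0.43; on the right 9 points lie between −0.1 and 0.19 and Cops7b stands at 0.43.

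These calls depended on the fit. With 1 spread estimated over all 12 libraries, or without the trend and robust options of limma, 0 of the 10 subunits passed adjusted p below 0.05. Gps1 did not pass without Het rods replicate 1, KO rods replicate 1 or KO rods replicate 2, and without Het rods replicate 3 it was called at 0.51. Without KO rods replicate 1, 1 subunit was still lower at adjusted p below 0.05, and without KO rods replicate 3, 2 were higher.

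Summed over the 10 genes, the deposited values of the complex were 12923 ± 120 in Het rods and 11681 ± 177 in KO rods (SD, n = 3), which is 0.0795 ± 0.00074% and 0.0718 ± 0.00108% of the library totals. The rod groups did not overlap. Cops2 has the largest share of this sum, and the GC trend of the libraries touches it as well. In retina the sums were 10081 ± 154 in Het and 9831 ± 179 in KO.

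Of the 70 genes in the related lists, 8 were called higher and 2 lower in KO rods, shares close to the 11.2% and 1.91% of all genes. Of the cullins and RING partners, Cul9 rose by 0.86 and 0 of 10 were called lower, over a range of −0.41 for Cul1 to 1.01 for Cul7. Of the NEDD8 conjugation genes, Nae1 fell by 0.61 and 5 of 10 were lower at adjusted p below 0.05, where 8.58% of genes were. Glmn, which binds Rbx1 and blocks ligases, fell by 0.65. Elob, an adaptor of Cul2 and Cul5 ligases, rose by 1.28, and Dda1, a part of Cul4 ligases, by 0.68. Of the 7 partners of Cops5 or the complex, 3 were called higher, where 11.2% of genes were: Mif at 1.57, Jun at 0.93 and Itpk1 at 0.55. Psmd3 of the lid rose by 0.78 and Eif3d of eIF3 by 0.66. The GC trend above touches these comparisons too, and its part in them was not tested.

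**Figure D5:**
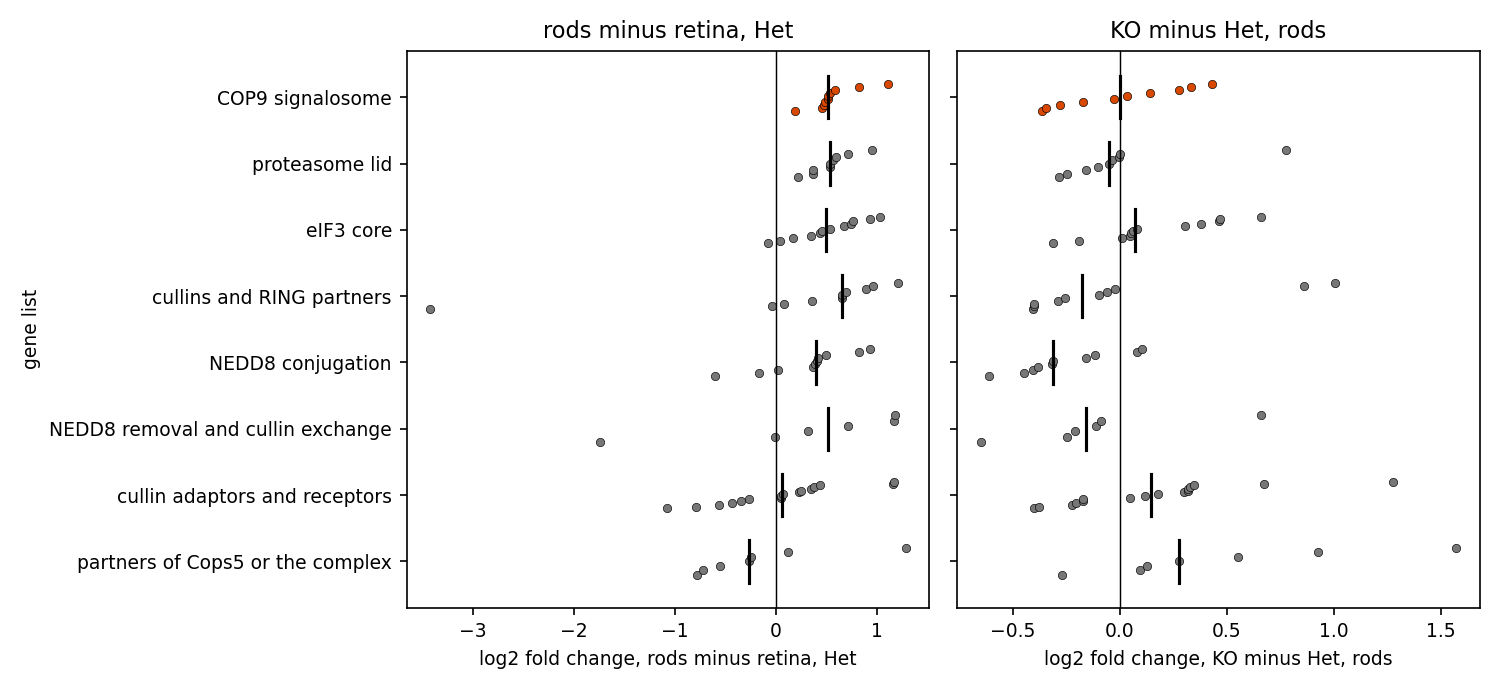
Log2 fold change (x axes) of every gene in the signalosome (orange) and 7 related lists (grey; y axis) for rods over retina in Het mice (left) and for KO over Het in rods (right); vertical strokes are list medians. Signalosome, proteasome lid and eIF3 medians lie between 0.5 and 0.54 on the left; on the right the signalosome spreads from −0.36 to 0.43 around 0.

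In whole retina no subunit passed the test between KO and Het. By limma 0 of the 10 passed adjusted p below 0.05, where 0 of 16863 genes (0%) did. Before adjustment 140 genes had p below 0.05, and 0 of them were subunits. Log2 fold changes ran from −0.12 for Cops2 to 0.14 for Cops9. For Cops5 it was −0.09 with a 95% interval of −0.46 to 0.27, which holds both 0 and the value seen in rods. Lens markers summed to 0.00075 to 1.58% of the total in Het retina and 0.436 to 5.04% in KO retina, and their part in this comparison was not tested.

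The KO effect in rods minus the KO effect in retina was tested directly. No gene of 17192 (0%) passed adjusted p below 0.05, and 601 had an unadjusted p below 0.05. Among the subunits only Cops3 was in that number, with a difference of −0.47 (SE 0.18, unadjusted p = 0.023, limma adjusted p = 0.8). For Cops5 the difference was −0.29 (SE 0.17, adjusted p = 0.8), with an interval of −0.66 to 0.07. A KO effect that differed between rods and retina was not shown for any subunit.

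Some exons of the subunit genes lie over genes on the opposite strand in the GRCm38 annotation, and the sources used here do not state whether counting used strand. Cops5 shares 182 exon bases with Cspp1, Cops3 shares 279 with Gm16062 and 87 with Nt5m, Cops6 shares 64 with Mcm7, and Cops2 shares 31 with Galk2. Reads there cannot be assigned with certainty, and the values of Cops5 and Cops3 are uncertain to that extent.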

How the data were processed

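RNA from HA-bead (rod) and input (retina) fractions of Het and KO mice was sequenced from polyA-selected, SMART-Seq V4 libraries. The submitters' notes name CASAVA 1.8.2, HISAT2, edgeR, DESeq2 and GRCm39 without roles. The deposited values are a signal: the authors' read counts appear to have been scaled to a common total per fraction and rounded, which was inferred from the values and is not stated. Because they are not raw counts, limma 3.58.1 (R 4.3.3) was run on log2(TMM-scaled value + 2) with trend and robust options, separately for each comparison, on genes that reached 10 (at the median library total) in 3 or more libraries and summed to 15 or more. Fold changes are on that log2 scale. P-values were adjusted (Benjamini-Hochberg) over all genes tested, and a gene was called at adjusted p below 0.05 and log2 fold change beyond 0.5. The study removed rod-depleted genes before comparing KO and Het rods; they were kept here. Cops7a against Cops7b used an exact permutation test. GC content and length came from GENCODE M21 (GRCm38, longest coding transcript), since no GRCm39 annotation was used here. GC values existed for 98.87% of genes tested in rods and 98.4% in retina. The fits were tested on simulated data.

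The members and lists were chosen with earlier results of these data known. All 10 subunits are named; 1 rod marker is not reported here; from other lists, called genes with at most 3 of the largest rises and falls. Same-numbered Het rod and Het retina libraries deviated together (r = 0.468, 0.413 and 0.251), as deviations from group means over genes, so the numbers pair them; the other group pairs did not meet that limit. Replicates differed by more than counting noise in every pair. Scaling, pseudocount, filter, empirical Bayes options, shared spread, GC trend, replicate block and left-out libraries were varied.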

Additional observations from a re-analysis of the deposited data

How the results depend on the processing

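Of 581 single-subunit values under the alternatives, 502 kept their direction and side of the threshold, 50 lost a call, 14 gained one and 15 changed sign. In Het rods against retina, library size scaling left 1 subunit called, 1 at adjusted p below 0.05 and 1168 genes higher, with Gps1 at −0.22. A value of 10 in every library, which tests fewer rod-depleted genes, left 2 subunits called, 4 at adjusted p below 0.05, and 2287 genes higher and 2865 lower. Removing the GC trend left 3 subunits called, with and without the replicate block; the block alone changed none of these 10 calls. In KO rods against retina, library size left 0 subunits called, 0 at adjusted p below 0.05 and 1144 genes higher, with Cops4, Cops5 and Cops6 at −0.171, −0.094 and −0.052, and the stricter filter left 3, 6, 2759 higher and 2870 lower.

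In KO against Het rods, genes called numbered 1460 higher and 250 lower. Library size gave 584 lower and Cops8 at −0.051. Plain empirical Bayes gave 0 subunits at adjusted p below 0.05 in each direction, with 719 genes higher and 138 lower. Fitting all 12 libraries gave 0 subunits and 0 genes in each direction and Cops8 at −0.054. Removing the GC trend gave 0 lower subunits, 277 genes higher and 110 lower, and with the replicate block 345 and 122; under both Cops2 was 0.024 and Cops6 0.063. Subunits higher at adjusted p below 0.05 were 2 with no filter, with the replicate block and with rod-depleted genes removed. In KO against Het retina 1 gene was called lower with plain empirical Bayes. Beyond these, the cause of each change was not tested.

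Leaving out 1 library at a time, Het rods against retina ranged from 2 to 7 subunits called, 2 to 9 at adjusted p below 0.05, 3061 (without Het retina replicate 1) to 5694 genes lower, and Gps1 from −0.065 to 0.333. KO rods against retina ranged from 3 to 8 called, 3 to 10, 2543 to 3842 genes higher and 3332 to 5703 lower, both lowest without KO retina replicate 1. KO against Het rods ranged from 0 to 1 subunit called higher, 0 to 2 higher and 1 to 3 lower at adjusted p below 0.05, 795 to 1596 genes higher and 93 to 346 lower, with the lowest 2 counts without Het rods replicate 1. There Cops6 ranged from −0.096 to 0.014 and Cops8 from −0.056 to 0.094. In KO against Het retina 0 to 1 gene was called higher and 0 to 1 lower, and Cops5 ranged from −0.18 to 0.026. The difference of KO effects had 0 to 1 gene lower. The mean difference between rods and retina in the Cops7a to Cops7b ratio kept its direction in all its alternatives, from 0.005 to 0.147. Single KO libraries matched by number went both ways. Same-numbered KO rod and KO retina libraries had correlations of 0.334, −0.014 and 0.182, KO and Het rods 0.183, 0.034 and 0.026, and KO and Het retina 0.404, −0.585 and −0.14. In each of these some library correlated better with another number, so the numbers were not taken to pair those groups. For KO rods and KO retina the mean was 0.167 for the same number and −0.083 for different numbers. Whether KO libraries of the same number came from the same tissue was not tested. The replicate block left 9 of 10 subunits at adjusted p below 0.05 in KO rods against retina. A group left with 2 libraries shares its spread with the other group.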

Other observations

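Cops5 was set against every tested gene over the 12 libraries after subtraction of group means. The 3 genes with the highest Pearson correlation were Nudt4 (0.977), a diphosphoinositol polyphosphate phosphohydrolase, Slc31a1 (0.968), the copper importer, and Rdh10 (0.96), a retinol dehydrogenase. Their transcripts have 46.26, 43.74 and 46.78% GC, near the 46.1% of Cops5. Within the complex, Cops2 was nearest to Cops5 at 0.833, and Gps1 was the most opposed at −0.68. Cops7b lay at −0.421. The 12 libraries differ in GC trend, and these correlations are given as descriptions.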
